A study of Oryza sativa Japonica Group with 41 samples.

Results

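The regions described here are the 1000 stretches of the rice genome in which acetylation of histone H3 lysine 9 (H3K9ac) was highest relative to 2 other acyl marks, butyrylation (Kbu) and crotonylation (Kcr) of lysines, in unstressed seedling leaves. Peaks of the 6 control libraries (3 marks, 2 replicates) were merged where they overlapped by at least 1 bp, which gave 34010 regions, and 20721 of them held a peak in all 6 libraries. In each library the tags (mapped read positions) summed over a region were divided by the total over those 20721 regions. The H3K9ac share is H3K9ac divided by the sum of the 3 marks, taken per replicate number and then averaged. The members are the 1000 regions with the highest mean share, and the other 19721 regions serve as their background.

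Acetyl, butyryl and crotonyl groups are carried by short-chain acyl-CoA molecules and are written on lysines of histones, in the tails and elsewhere. Acetylation at H3K9 is a mark of active promoters and the first nucleosomes of transcribed genes, and butyrylation and crotonylation occupy largely the same places in plants and animals. The supply of acyl-CoA depends on metabolism, so the balance of the 3 marks is of interest when light or oxygen is withdrawn.

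All plants were of the cultivar DongJin, with no transgene or mutation named in the labels. The seedling groups were leaves of 12-day plants, without root or endosperm, taken at ZT12 (zeitgeber time, hours after lights on): starved plants kept in darkness for 48 h, plants submerged for 6 h, and untreated controls. Each seedling group had 2 chromatin immunoprecipitation libraries for each of the 3 antibodies, 18 in all. A separate day course had H3K9ac only, in leaves of untreated 30-day plants at ZT0, ZT6, ZT12 and ZT18, with 2 libraries per time. Whether replicates came from separate cultures is not stated, so p-values measure the spread between these libraries only.

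The files list peaks on the MSU7.0 genome with the tags in each, and peaks were called without an input library. The seedling libraries entered peak calling with 5631625 to 19269402 tags and the day-course libraries with 5914314 to 16232431. The 2 starved H3K9ac libraries were the shallowest of the seedling set, at 5631625 and 6480371 tags, against 10581295 and 11985500 in control H3K9ac. Replicate libraries of the control H3K9ac group differed little beyond counting noise (chi-square per region 1.36, where counting noise alone gives about 1), and the ZT6 pair differed most (23.9). Tags were counted only inside each library's own peaks, so a peak that was called shorter also lost tags. No gene annotation of this build was used, so regions are given by position and no gene is named.

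The H3K9ac share of the members spanned 45.4% to 71.0% with a median of 49.2%, against a median of 31.9% over all 20721 regions (SD across regions 7.53 percentage points). These values chose the members and are a description. Replicate libraries gave shares that differed with an SD of 3.85 percentage points within a member, and the 2 replicates correlated across all regions at r = 0.90 (n = 20721 regions, which share libraries). Replicate 1 alone would have kept 830 of the 1000 and replicate 2 alone 863. The limit fell in a continuum. The 3 members just inside it were chr10:17415213-17416957 (45.8% and 45.0% in the 2 replicates), chr6:22901273-22903012 (44.5% and 46.3%) and chr6:19276872-19278496 (44.9% and 45.8%). The 3 regions just outside were chr6:4724000-4725950 (43.5% and 47.3%), chr10:23051681-23053655 (42.9% and 47.8%) and chr5:7459619-7461364 (44.4% and 46.3%).

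The region with the highest share lay on chromosome 3, at chr3:4247587-4254799 (7213 bp). Its H3K9ac peak was 7211 and 7061 bp long in the control replicates, while Kbu was called over 2657 and 2417 bp and Kcr over 2450 and 1553 bp. H3K9ac thus ran 4496 and 4449 bp past the end of the butyryl and crotonyl peaks on the side of the higher coordinates, and only 58 and 195 bp past them on the other side. The second, chr3:4412447-4419252 (6806 bp), extended on both sides, by 2713 and 3278 bp below and 1225 and 1550 bp above. The third was chr2:27471537-27476967 (5431 bp), with 3028 and 3198 bp of H3K9ac below the other marks and 872 and 809 bp above them. The remaining 7 of the first 10 were chr11:630982-633982, chr9:21963233-21966826, chr4:27783737-27790588, chr7:27889123-27895047, chr1:42073772-42077664, chr9:20885142-20890118 and chr4:32599852-32607633. The last of these shows how far replicates could differ: its Kbu peak was called over 5433 bp in replicate 1 and 1748 bp in replicate 2, and the extension of H3K9ac was 487 and 6034 bp.

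That geometry was common, as a description, since the extensions are those of the control peaks whose tags chose the members. Control H3K9ac peaks reached beyond both acyl marks by a median of 447.5 bp in replicate 1 and 788 bp in replicate 2 in the members, against 0 and 48 bp in the other regions. The extension exceeded 500 bp in 469 and 657 members (46.9% and 65.7%), against 1.80% and 4.75% of the other regions. At least 90% of the extension was on a single side in 332 of those 469 members and 423 of those 657 (70.8% and 64.4%), a lower share than the 86.4% and 78.3% of the other regions with such an extension. In the 435 members over 500 bp in both replicates, the longer side was the same in 386 (88.7%). Among members over 500 bp the longer side lay at lower coordinates in 243 and 354 and at higher coordinates in 226 and 303.

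The summits of these same control peaks stayed close together. In the members the H3K9ac summit lay a median of 57 and 60 bp from the Kbu summit and 63 and 70 bp from the Kcr summit, against 45 and 45 bp and 50 and 49 bp in the other regions. What differed was where the summit sat inside the H3K9ac peak. It was off the peak's centre by a median of 17.8% and 18.2% of the peak's length in members, against 9.77% and 9.99% elsewhere, so the members' H3K9ac peaks were asymmetric around a summit that they nearly shared with the other marks.

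Width was the members' plainest feature, again as a description. Tags were counted only inside called peaks, so a longer control H3K9ac peak by itself raises the share that chose the members. The merged region had a median of 2995.5 bp (quartiles 2157.25 and 4113 bp) in members, against 1776 bp (1578 and 2200 bp) in the other regions. Called H3K9ac length was 2636 and 2856 bp in the 2 control replicates, against 1489 and 1537 bp. For Kbu the medians were 1864 and 1640.5 bp in members and 1664 and 1522 bp elsewhere, and for Kcr 1615 and 1580.5 bp and 1468 and 1472 bp. The members' H3K9ac peaks were therefore 1.77 and 1.86 times as long as those of other regions, and their Kbu and Kcr peaks 1.07 to 1.12 times. The widest member, chr10:22853497-22862399 (8903 bp), carried H3K9ac over 8063 and 8657 bp, Kbu over 4290 and 3263 bp and Kcr over 3069 and 3197 bp.

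**Figure D1:**
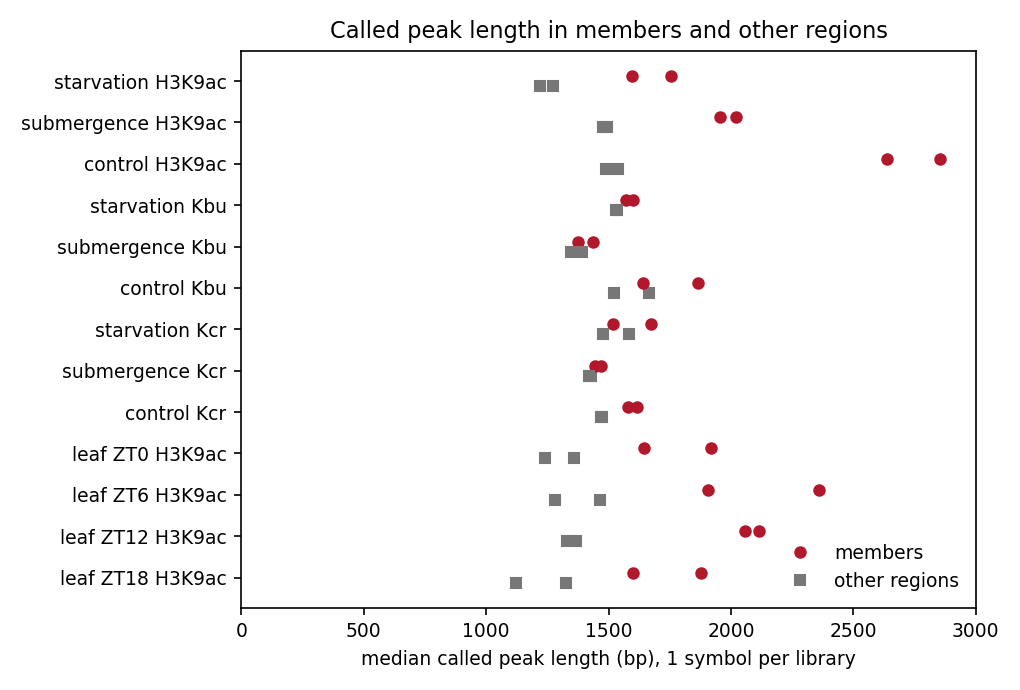
Median called peak length in bp (x axis) for each group of libraries (y axis), with 1 symbol per library: red circles are the members and grey squares the other regions. H3K9ac peaks of the members are longer than those of other regions in every library, from 1594.5 bp in a starved library to 2856 bp in a control library, while Kbu and Kcr lengths nearly coincide.

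Long H3K9ac peaks and high shares went together over the whole set, as a description (r = 0.51 between log2 length and share across 20721 regions, which share their libraries and whose length and tags come from the same peaks). Of 10 equal bins of control H3K9ac length, the longest held 578 members (27.9% of its regions) and the shortest 14 (0.675%). Still, only 408 of the 1000 longest H3K9ac regions were members. Length was not the whole of the share either: with tags taken per kb of called peak the members' median control share was 40.4% and 42.1%, against 32.3% and 32.5% in the others, and a list of 1000 made on that measure shared 505 regions with the members.

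In tags the members had more H3K9ac and about as much of the acyl marks, again as a description of what chose them. They held a median of 382 and 441 H3K9ac tags in control libraries, against 182 and 206 in other regions. Kbu tags were 306.5 and 283 against 318 and 306, and Kcr tags 240 and 270.5 against 236 and 290. Per kb of called peak, H3K9ac was 144 and 157 tags against 116 and 127, whereas Kbu was 155 and 157 against 182 and 193. Fold enrichment, which the peak caller takes against the local background of the same library, went the other way. As a ratio to that background it is not a peak height. It was 5.94 and 5.84 in members and 7.32 and 7.22 in the other regions for H3K9ac. It was lower for the acyl marks too, at 6.41 and 7.43 against 8.23 and 9.57 for Kbu and 5.62 and 6.67 against 7.19 and 8.57 for Kcr. Only 45 members were among the 1000 regions of highest H3K9ac enrichment.

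The members were spread over all 12 chromosomes, from 3.76% of the regions of chromosome 12 (44 of 1169) to 5.88% of those of chromosome 1 (166 of 2822), with 4.83% overall. Between a chromosome's end and its middle they sat slightly nearer the end: 27.6% lay in the outer 20%, against 24.9% of the other regions. They tended to have members next to them. Of the 1000, 217 (21.7%) had a member as the adjacent region, against 8.67% of the other regions. The longest run was 5 neighbouring members at chr11:12300975-12379571, a span of 78.6 kb with a median share of 52.1%.

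A small number of members lay at peaks of the input library, which is chromatin sequenced without an antibody. These were 23 of the 1000 (2.30%), against 102 of the other 19721 (0.517%). Leaving those 23 out moved no count of calls given below by more than 1.5 times.

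The stressed libraries took no part in choosing the members, and the members stood out in them again. With peaks in all 6 libraries of a treatment required, 916 members could be followed under starvation and 939 under submergence. Their median H3K9ac share was 45.4% and 46.4% in the 2 starved replicates, against 31.7% and 31.5% in the other regions, and 44.1% and 44.3% in the submerged replicates, against 32.2% and 32.1%. The control medians that chose them were 47.9% and 50.8%. In each of the 4 treated sets 93.8% to 94.4% of the members were above the median of all regions, and 433 to 463 were among the 1000 highest.

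**Figure D2:**
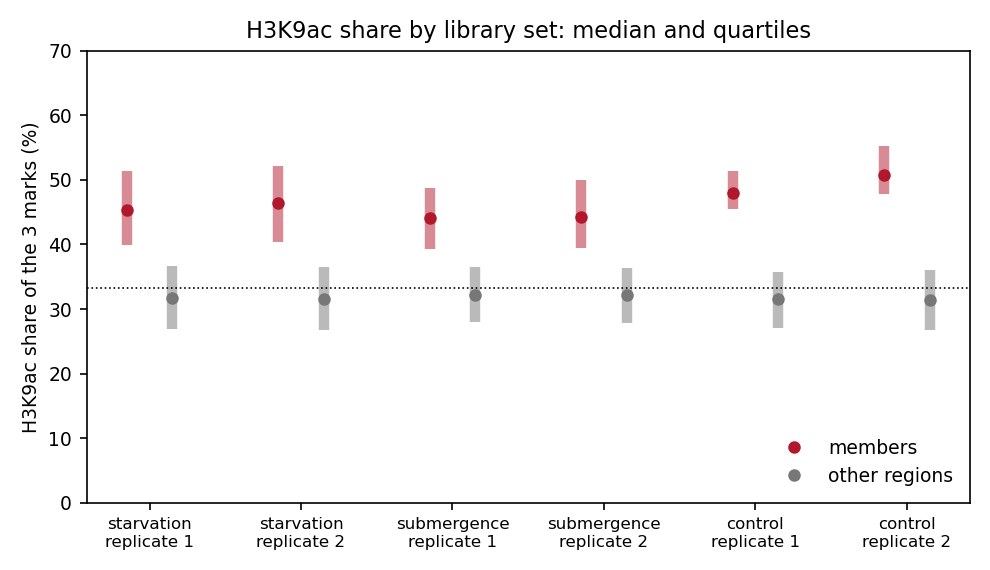
H3K9ac share of the 3 marks in percent (y axis) for each replicate set of 3 libraries (x axis). Points are medians and bars run from the lower to the upper quartile, red for members and grey for other regions, and the dotted line marks equal shares of the 3 marks. The members' medians in treated sets, 44.1% to 46.4%, are above the upper quartile of the other regions in each set.

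The same contrast was tested region by region within each treatment, as H3K9ac against the mean of Kbu and Kcr with edgeR's quasi-likelihood test. In starved libraries 782 of 916 members (85.4%) were called higher in H3K9ac at an adjusted p under 0.05 and 15 lower, where 60.4% of the 19673 regions tested were called, 30.5% higher and 29.9% lower. In submerged libraries 820 of 939 (87.3%) were higher and 12 lower, where 60.0% of 20960 regions were called, 30.3% higher and 29.7% lower. The median log2 ratio of the members was 0.85 in starved and 0.74 in submerged libraries, against -0.01 in both over all regions. With called length as an offset the members called were 858 higher and 0 lower in starved libraries, where 54.3% of all regions were called and their median moved to 0.31, and 504 higher and 20 lower in submerged libraries, where 42.8% were called and the median was -0.09.

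The second-ranked member kept its excess in both treatments, and its shares were 73.8% and 72.3% in starved and 75.7% and 79.5% in submerged libraries. Its log2 ratio of H3K9ac to the acyl marks (± SE) was 2.51 ± 0.13 in starved libraries (adjusted p = 2.68e-06) and 2.87 ± 0.10 in submerged ones (adjusted p = 1.75e-06). The third-ranked member had shares of 24.9% and 25.9% in starved libraries and 49.0% and 38% in submerged ones, and its ratio in starved libraries turned negative, at -0.47 ± 0.15 (adjusted p = 0.0219).

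The members with shorter H3K9ac peaks had the higher shares in stressed leaves, although not in controls. Splitting the 1000 at a control length of 2758.25 bp gave 500 longer members with a median of 3713.75 bp and 500 shorter ones with 1973.5 bp, and median control shares of 50.6% and 47.9%. In starved libraries the longer members had median shares of 43.7% and 44.6%, and the shorter ones 46.7% and 47.9%. In submerged libraries these were 42.7% and 43.5% for the longer and 45.3% and 45.3% for the shorter. The difference between the 2 sets of members was not tested. The split was made on control peak length, which by itself raises the control share that chose the members. The part of that selection in the reversal was not tested.

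H3K9ac in the members was lower under both stresses than in the controls, and this comparison has to be read with the selection in mind, because the control libraries that chose the members for high H3K9ac are also its baseline. Of 931 members with an H3K9ac peak in all 6 seedling libraries, 508 were called lower and 144 higher under starvation, where 39.3% of the 18617 regions tested were called, 20.9% lower and 18.4% higher. Under submergence 548 were lower and 62 higher, where 33.1% were called, 18.7% lower and 14.4% higher. Nothing is read from these counts alone. The other 69 members lacked a peak in at least 1 of the 6 libraries and were not tested. Among them 40 had no H3K9ac peak in either starved library and 19 had none in either submerged library. Such a loss was less frequent in members than in the regions outside the members. There it occurred in 1330 (6.74%) under starvation and 473 (2.40%) under submergence. The part of the members' high control H3K9ac, which chose them, in that difference was not tested.

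Members were also chosen on a single replicate and measured in the other, which sets aside the noise of a library but not the choice of regions high in the control condition. Members chosen on replicate 2 had a median log2 ratio in replicate 1 of -0.34 for starvation over control (640 of 924 below 0), and members chosen on replicate 1 had -0.33 in replicate 2 (632 of 934). For submergence the medians were -0.35 (695 of 924) and -0.33 (731 of 934). Over all regions the medians were 0.00 in each case. With the members chosen on both replicates the medians were -0.36 and -0.36 for starvation and -0.38 and -0.37 for submergence.

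Shorter peaks went with the decrease. Under submergence a member's H3K9ac peak had a median of 86.3% and 84.0% of its control length in the 2 replicates, against 100.2% and 96.5% in the other regions. It was under 50% of the control length in 113 and 128 members (11.6% and 13.1%), against 0.579% and 0.685% of the other regions. The control peaks taken as 100% are those that chose the members. Tags used were 8885442 and 11650150 in the submerged and 10581295 and 11985500 in the control libraries, and the part of depth in the shortening was not tested. Under starvation the median was 69.0% and 70.7% in members and 81.5% and 82.6% elsewhere, but there the treated libraries were shallower, so that depth and treatment cannot be told apart in this value.

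Per base of called peak the picture differed. With called length as an offset the median log2 ratio for starvation over control was 0.20 in the members, below the 0.29 over all regions. The direction of most calls turned, with 408 of 931 members higher and 95 lower, where 53.5% of all regions were called. Since the median of all regions rose further, these calls are not read as a rise particular to the members. For submergence the medians were -0.06 and 0.04, with 73 members higher and 210 lower, where 17.3% of all regions were called. DESeq2 called fewer members than edgeR, 328 lower and 37 higher under starvation, where it called 10.3% of all regions, and 316 lower and 11 higher under submergence, where it called 6.10%. Under the rule that both replicates change by more than 1.5-fold in the same direction, 296 members fell and 28 rose under starvation, where 7.61% and 3.12% of all regions did, and 272 fell and 11 rose under submergence, where 4.31% and 2.07% did.

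**Figure D3:**
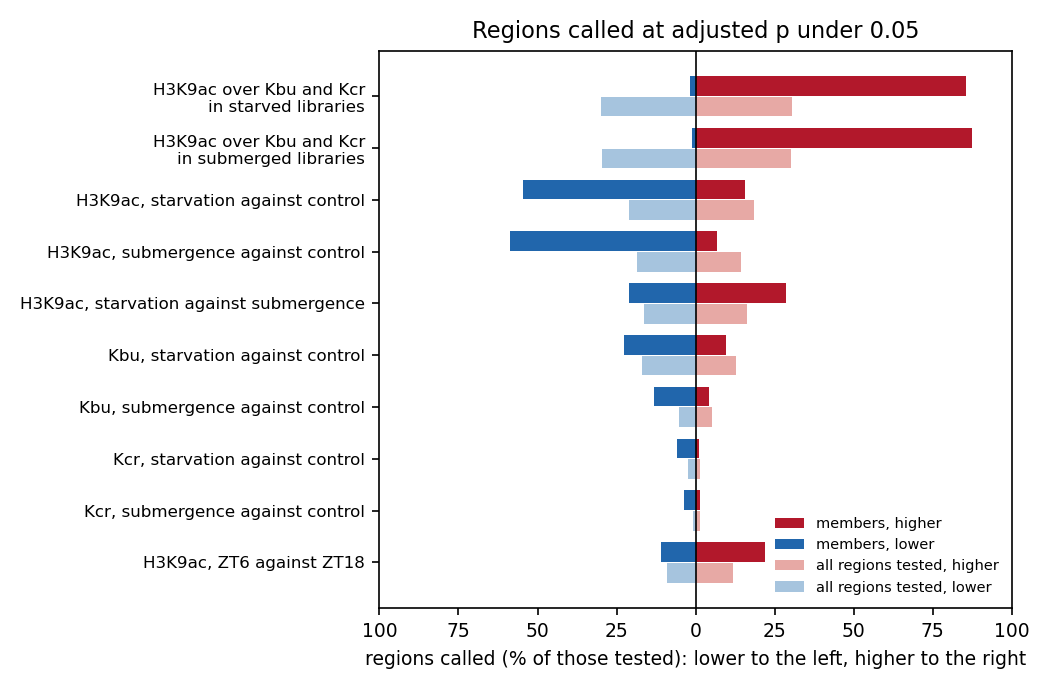
Percent of regions called at an adjusted p under 0.05 (x axis, lower to the left and higher to the right) for each comparison (y axis), with the members in dark bars and all regions tested in pale bars. The members depart most from the background in H3K9ac over Kbu and Kcr, where 85.4% and 87.3% are called higher, and in H3K9ac against control, where more are called lower. The controls of that comparison also chose the members.

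Among the 931 members tested, the largest decrease under starvation was at chr1:32712756-32716192 (3437 bp, share rank 75). Its H3K9ac was 13.5 and 11 normalised tags in starved leaves, 20.8 and 23.4 in submerged leaves, and 134 and 126 in controls. Normalised tags are the sum in the region per 1000000 tags of the library's total in tested regions, adjusted by TMM (trimmed mean of M values). The log2 fold change was -3.41 ± 0.10 for starvation (adjusted p = 6.47e-07) and -2.54 ± 0.08 for submergence (adjusted p = 7.79e-07). The peak measured 696 and 723 bp in starved libraries, against 3427 and 3437 bp in controls, and both acyl marks fell there too, with Kbu at 12.4 and 12.3 in starved leaves against 33.7 and 41.5 in controls (log2 change -1.60 ± 0.14, adjusted p = 0.000155).

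The third-ranked member, on chromosome 2, had 16.6 and 19 normalised tags of H3K9ac in starved leaves, 52.5 and 36.7 in submerged leaves and 160 and 162 in controls. The controls that gave this member its rank are the baseline of the comparison. Its log2 change of H3K9ac under starvation was -3.17 ± 0.16 (adjusted p = 4.3e-06). Its Kcr, at 19.4 and 23.3 in starved leaves against 28.0 and 28.9 in controls, did not pass the test (adjusted p = 0.127). The third of the largest decreases among tested members under starvation was chr1:23641344-23646289, with 24.4 and 21.7 in starved leaves against 164 and 162 (log2 change -2.82 ± 0.07, adjusted p = 4.3e-07).

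Under submergence the largest decreases among tested members were at chr2:26769431-26775797, the chromosome 1 region of rank 75 and the first-ranked member on chromosome 3. At the chromosome 2 region H3K9ac was 22.5 and 21.0 normalised tags in submerged leaves against 159 and 149 in controls (log2 change -2.82 ± 0.11, adjusted p = 1.27e-06). It had no Kbu peak in either submerged library. For the first-ranked member, too, the controls that gave it its rank are the baseline. It had H3K9ac of 77.7 and 73.5 in starved, 49.9 and 45.7 in submerged and 256 and 255 in control leaves. The log2 change under submergence was -2.42 ± 0.06 (adjusted p = 3.22e-07). Its peak contracted to 1766 and 1700 bp in submerged leaves, against 7211 and 7061 bp in controls.

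Increases among tested members were smaller. Under starvation chr6:29341112-29344889 (rank 651) led with 172 and 172 normalised tags in starved and 142 and 190 in submerged leaves, against 85.5 and 72.2 in controls (log2 change 1.13 ± 0.14 for starvation, adjusted p = 0.00041). The next were chr3:34566038-34569195, at 206 and 227 in starved against 105 and 101 in control leaves (1.07 ± 0.07, adjusted p = 1.49e-05), and the short region chr12:13242954-13244250, at 85.1 and 95.5 against 44.7 and 46.5 (0.99 ± 0.08, adjusted p = 3.92e-05). At that chromosome 12 region the peak was no longer than in controls, with 1097 and 1167 bp against 1268 and 1288 bp.

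Under submergence the 3 largest increases among tested members lay on chromosomes 1 and 11. H3K9ac at chr1:14579168-14581492 was 102 and 85.2 in submerged leaves against 39.4 and 40.3 in controls (log2 change 1.22 ± 0.14, adjusted p = 0.000342). At chr11:6887375-6889346 it was 112 and 102 against 45.6 and 48.4 (1.18 ± 0.07, adjusted p = 1.18e-05), and with called length as an offset this change was 0.03 and no longer called. At chr11:8673740-8679706 it was 192 and 198 against 76.4 and 98.0 (1.15 ± 0.09, adjusted p = 5.58e-05).

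Starvation was also set directly against submergence. The ratio compares treated libraries only, although the control libraries entered the same fit and its requirement of a peak in all 6 libraries. Of the 931 members, 266 were called higher and 196 lower in starved than in submerged leaves, where 16.4% of all regions tested were higher and 16.5% lower. The median log2 ratio of the members was 0.07, against 0.01 over all regions. In either direction 462 of 931 members (49.6%) differed, where 32.8% of all regions were called. DESeq2 called 130 members, with the opposite balance of 50 higher and 80 lower, and 5.62% of all regions. With called length as an offset 484 members were higher and 18 lower, where 45.3% of all regions were called and their median stood at 0.25.

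The members highest in starved relative to submerged leaves had the longer peaks in darkness. At chr1:3854397-3860374 (rank 162) H3K9ac was 309 and 287 normalised tags in starved leaves, 102 and 79.7 in submerged leaves and 179 and 196 in controls, and the log2 ratio of starvation to submergence was 1.72 ± 0.11 (adjusted p = 3.85e-05). Its peak measured 8465 and 8442 bp in starved libraries against 3443 and 1749 bp in submerged ones, although the starved libraries were the shallower, and with called length as an offset the ratio was -0.062. At chr4:11289406-11294612 (rank 46) it was 177 and 171 in starved and 54.8 and 55.2 in submerged leaves (1.66 ± 0.07, adjusted p = 1.1e-05), and at chr8:18768364-18772214 (rank 135) 136 and 126 against 47.3 and 47.9 (1.46 ± 0.16, adjusted p = 0.000494). In each of these 3 the Kbu and Kcr levels of the 2 stresses lay within a factor of 2.

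In the members lowest in starved relative to submerged leaves the longer peaks were in submerged libraries. The chromosome 11 region of rank 54, chr11:8673740-8679706, had 49.3 and 50.2 in starved against 192 and 198 in submerged leaves (-1.97 ± 0.12, adjusted p = 3.18e-05). Its peak was 1558 and 1623 bp long in starved and 7006 and 7129 bp in submerged libraries, and with called length as an offset the ratio turned to 0.18. The region chr2:7945903-7950417 (rank 658) had 19.6 and 19.8 against 74.7 and 72.9 (-1.90 ± 0.09, adjusted p = 1.65e-05), and its Kcr was 12.5 and 12.0 against 45.1 and 37.8. The region chr6:26411317-26415256 (rank 194) had 44.5 and 43.8 against 156 and 162 (-1.85 ± 0.07, adjusted p = 5.33e-06). With called length as an offset, only the chromosome 8 region of these 6 remained called.

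**Figure D4:**
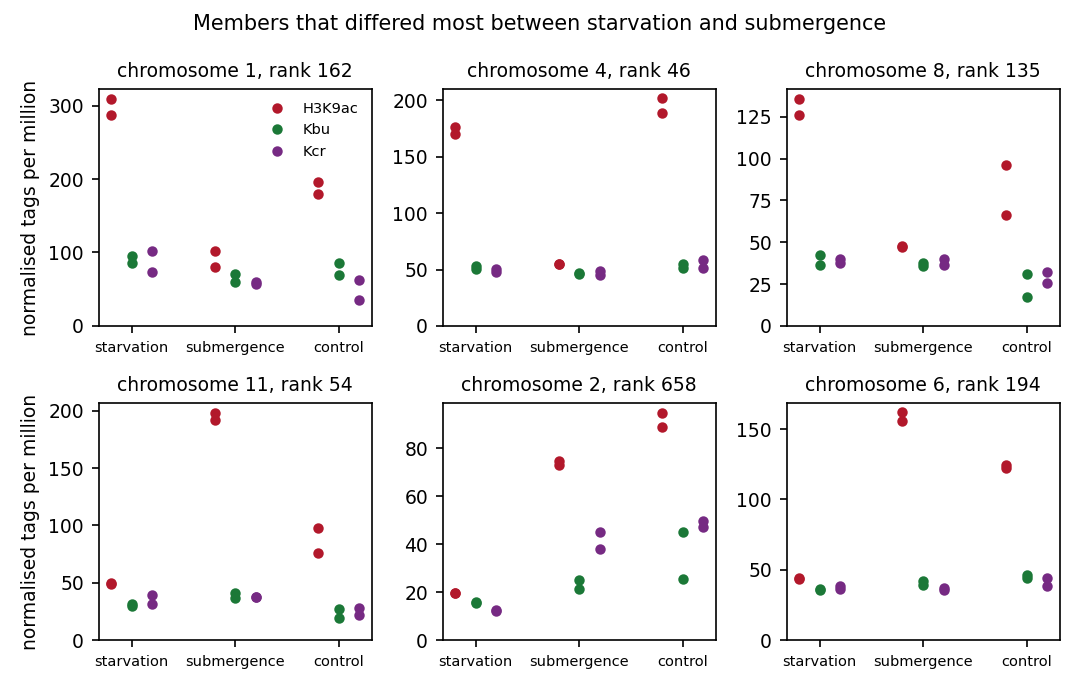
Normalised tags (y axis, starting at 0) of H3K9ac, Kbu and Kcr in starved, submerged and control leaves (x axis), 1 point per library, for the 6 members that differed most between starvation and submergence. In the upper row H3K9ac is higher in starved than in submerged leaves, and in the lower row it is lower, as at the chromosome 11 region with 49.3 and 50.2 against 192 and 198.

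In the main fits fewer members were called for the acyl marks than for H3K9ac, whose high control level chose the members. The replicate spread estimated in each fit (common dispersion) also differed, at 0.0012 (H3K9ac), 0.0035 (Kbu) and 0.0070 (Kcr). Counts of calls therefore do not show which mark moved more. The paper also cautions that its Kbu and Kcr antibodies read all histone sites together. Such mixed signals, it proposes, may shift less than 1 single mark. Kbu was called lower in 215 and higher in 91 of 943 members under starvation, where 29.7% of 25367 regions were called, 16.9% lower and 12.8% higher, and lower in 125 and higher in 40 under submergence, where 10.6% were called, 5.38% lower and 5.18% higher. Kcr was lower in 56 and higher in 10 of 942 members under starvation, where 3.79% of 25799 regions were called, 2.44% lower and 1.35% higher, and lower in 36 and higher in 12 under submergence, where 2.31% were called, 0.965% lower and 1.35% higher. The median log2 ratios of the members were -0.10 and -0.08 for Kbu and -0.08 and -0.10 for Kcr, against 0.00 in each case over all regions. Scaling to the tags used by MACS shifted the median of all regions by 0.12 for Kbu and 0.15 for Kcr under starvation, and the split of called members then became 135 higher and 116 lower for Kbu, where 26.6% of all regions were called, and 31 higher and 35 lower for Kcr, where 3.78% were. The control Kbu and Kcr libraries took part in the selection too. With members chosen on the other replicate the medians were -0.08 and -0.11 for Kbu and -0.24 and 0.01 for Kcr under starvation, so the Kcr value came from replicate 1. Single libraries also weighed on the counts: 155 members were called for Kbu under starvation without starved replicate 2 (13.2% of all regions) and 79 under submergence without submerged replicate 1 (2.94%), and for Kcr 25 and 11 without replicate 1 of the starved or submerged libraries (0.864% and 0.504%).

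The calls of the marks overlapped within a treatment, beside 54.6% and 58.9% of all members tested that were lower in H3K9ac under starvation and submergence, with the controls that chose the members as the baseline of every mark. Under starvation 171 members were lower in both H3K9ac and Kbu, which is 33.7% of the 508 lower in H3K9ac and 79.5% of the 215 lower in Kbu. Under submergence 109 were, 19.9% of 548 and 87.2% of 125. Of all members tested for Kbu, 22.8% were lower in it under starvation and 13.3% under submergence. All 3 marks were lower in 36 members under starvation and 22 under submergence. No overlap over all regions is given here, so these counts are not read as a trait of the members.

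The largest decrease of Kbu among tested members under starvation was at chr9:20402472-20405909 (rank 393), with 10.8 and 11.2 normalised tags in starved and 51.1 and 48.5 in control leaves (log2 change -2.18 ± 0.10, adjusted p = 9.82e-06). H3K9ac there was 26.2 and 27.0 against 124 and 126, and Kcr 12.7 and 13.7 against 55.7 and 47.6, and both passed the test (adjusted p = 9.31e-07 and 0.00102). The largest decrease of Kcr under starvation among members tested was at the chromosome 2 region of rank 658, at 12.5 and 12.0 in starved leaves against 49.7 and 47.1 in controls (-1.98 ± 0.12, adjusted p = 0.000875). Under submergence Kbu fell most, among members with a Kbu peak in all 6 libraries, at chr2:31454366-31458043, to 12.3 and 11.2 in submerged leaves against 41.1 and 44.5 in controls (-1.87 ± 0.12, adjusted p = 0.000163). Another 18 members had no Kbu peak in either submerged library and were not tested. That loss was more frequent in members than in the regions outside the members, where it occurred in 39 (0.198%). The rule chose members for low control Kbu relative to H3K9ac. Their control Kbu fold enrichment was 6.41 and 7.43, against 8.23 and 9.57 in the other regions. The part of this selection in the loss was not tested. Among tested members Kcr fell most at chr2:27652612-27655365, with 11 and 11 in submerged leaves against 30.9 and 40.5 (-1.70 ± 0.18, adjusted p = 0.00545).

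In the main fits fewer members were called higher than lower for either acyl mark. For Kbu that balance turned under both stresses with called length as an offset. The largest among tested members for Kbu under starvation was at chr4:26532652-26537682. Kbu there (rank 58) was 39.1 and 38.3 in starved leaves against 21.2 and 18.9 in controls (0.95 ± 0.10, adjusted p = 0.000388), while its H3K9ac was 59.8 and 55.9 against 55.6 and 95.1. The call was lost at a peak score of at least 100 and with called length as an offset. Kcr at chr4:30554669-30558863 (rank 22) was 36.7 and 42.6 in starved leaves against 16.9 and 15.5 in controls (1.29 ± 0.14, adjusted p = 0.00437), and with called length as an offset it turned to -0.42. Its H3K9ac was not tested, since a peak was called in only 1 of the 2 starved libraries, with 164 normalised tags there against 49.7 and 72.9 in controls. Among tested members under submergence Kbu rose most at chr8:24647314-24650231, to 34.7 and 27.9 in submerged leaves against 17.0 and 13.8 in controls (1.02 ± 0.17, adjusted p = 0.00865), a call lost without submerged replicate 1 (adjusted p = 0.0563). Of those tested for Kcr, it rose most at chr6:14078176-14081828, to 24.3 and 37.3 against 12.5 and 11.4 in controls (1.37 ± 0.22, adjusted p = 0.0229), where H3K9ac rose as well (0.73 ± 0.06, adjusted p = 5.21e-05). That Kcr call was lost without either control library or without submerged replicate 2 (adjusted p = 0.0562 to 0.112).

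In the leaves of 30-day plants, which had no Kbu or Kcr libraries, the members kept their long H3K9ac peaks. The median called length over the 8 libraries was 1601 to 2361 bp in members, against 1124 to 1466 bp in the other regions, a ratio of 1.33 to 1.61 within a library. A peak in all 8 libraries was present in 827 members (82.7%), against 80.7% of the other regions. Peaks confined to part of the day, in both libraries of at least 1 time and in neither of another, occurred in 59 members (5.90%), against 6.00% of the other regions.

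H3K9ac over the members changed with time of day more often than over all regions. Of the 827 members tested, 432 (52.2%) were called over the 4 times, where 35.9% of 17736 regions were. Members also held more tags in the 8 libraries, with medians 1.59 to 2.01 times those of the other regions. The part of tag number in the calls was not tested. Among called members the highest time mean was a median of 2.09 times the lowest, and 235 of the 432 exceeded 2, against a median of 1.81 over the 6371 called regions, of which 38% exceeded 2. Longer members were called in 61.5% of cases (249 of 405) and shorter ones in 43.4% (183 of 422). Leaving out replicate 1 of ZT12 reduced the count to 277, and with called length as an offset it was 193, where 14.9% of all regions were called.

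The called members were most often highest at ZT6. Their highest mean was at ZT6 in 188 of 432 (43.5%) and at ZT12 in 111 (25.7%), against 32.2% and 28.7% of all called regions. Only 60 (13.9%) were highest at ZT0, against 23.5%, and ZT0 was the lowest time of 193 (44.7%), against 39.6%. The members' median level was 72.8 normalised tags at ZT0, 87.1 at ZT6, 79.1 at ZT12 and 79.6 at ZT18, while over all regions it moved between 45.4 and 46.5. Tags were counted inside called peaks, whose median length in members was 1647 and 1917 bp at ZT0 and 1907.5 and 2361 bp at ZT6. It was 2058 and 2115 bp at ZT12 and 1878 and 1601 bp at ZT18. The ZT6 pair agreed least (chi-square per region 23.9).

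ZT6 against ZT18 gave 181 members higher at ZT6 and 90 lower, where 20.7% of regions were called, 11.8% higher and 8.91% lower, and the members' median log2 ratio was 0.12, against 0.00 over all regions. The 2 ZT6 libraries differed most of any pair, and leaving out replicate 2 of ZT6 or replicate 1 of ZT18 left 163 called members in each case, against 271. With called length as an offset the called members were 24 higher and 68 lower, where 7.49% of all regions were called, with a median of -0.16.

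The 4 called members with the largest range were low at ZT0 and high at ZT6 or ZT12. At chr2:24565782-24572382 (rank 434) the 2 libraries gave 19.9 and 19.7 normalised tags at ZT0, 95.1 and 100 at ZT6, 380 and 254 at ZT12 and 46.3 and 41.5 at ZT18, a 16.0-fold range (adjusted p = 2.67e-05). At chr7:26052654-26056204 (rank 501) they gave 11 and 30.5 at ZT0, 295 and 341 at ZT6, 327 and 301 at ZT12 and 98.8 and 123 at ZT18, a 15.3-fold range (adjusted p = 0.000364). That region lost its H3K9ac peak in both starved libraries and was at 21.4 and 11.5 in submerged leaves, against 85.0 and 88.9 in controls. The ranges at chr2:1534051-1537324 (rank 973) and chr8:16340513-16345651 (rank 17) were 12.6-fold (adjusted p = 3.5e-05) and 11.1-fold (adjusted p = 2.67e-05).

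**Figure D5:**
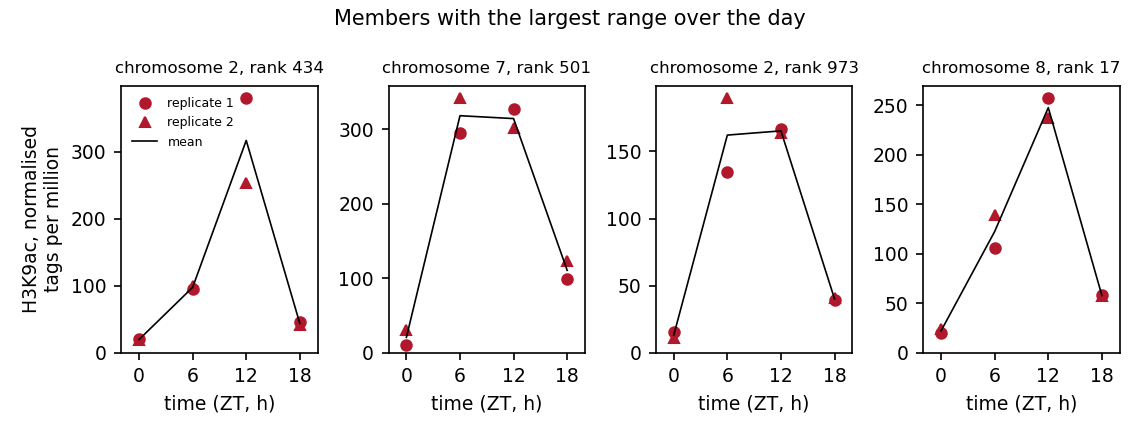
H3K9ac in normalised tags (y axis, starting at 0) against time of day in hours (x axis, ZT) for the 4 called members with the largest range. Circles and triangles are the 2 libraries of each time and the line joins their means: all 4 are lowest at ZT0 and highest at ZT6 or ZT12.

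Some of the steepest time courses were not tested, because a region had to hold a peak in all 8 libraries. The third-ranked member had no peak at ZT0 in either library, 11.4 normalised tags at ZT6 in a single library, 407 and 370 at ZT12 and 14.0 and 11.1 at ZT18. The second-ranked member had no peak at ZT0 or ZT6 in any library, 355 and 331 at ZT12 and 27.4 and 37.8 at ZT18. The region of rank 9, chr9:20885142-20890118, had 51.5 and 59.8 at ZT0, 198 and 290 at ZT6, 355 and 328 at ZT12 and no peak at ZT18 in either library. The seedlings that defined the members were also taken at ZT12.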

How the data were processed

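Chromatin immunoprecipitation libraries of the 3 marks were sequenced, and the authors aligned the reads to MSU7.0 with Bowtie2 2.2.5, removed duplicates with SAMtools 0.1.19 and called peaks with MACS 1.4.2 in each library, without input (bandwidth 300 bp, p cutoff 1e-05). The deposited peak lists give tag counts, which are raw, a score of 10 times the -log10 of the peak's p-value, and a fold enrichment (ratio) over the library's own local background. Of these, tag counts and peak positions were used for tests, and fold and score for description and filtering. RNA-seq samples were not analysed here.

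Each peak's tags were assigned to the merged control region of largest overlap and summed. Regions with a peak in every library of a fit were tested with edgeR 4.0.16 (TMM, quasi-likelihood F test, Benjamini-Hochberg adjustment over all regions of the fit, called under 0.05). Each fit held only the libraries of its own mark, treatment or day course: 3 groups of 2 for a mark or a treatment, and 4 groups of 2 for the day course. Standard errors were derived from the test's F. DESeq2 1.42.0 was an alternative. Other alternatives were its size factors, all tags used by MACS as library size, no filter, a score of at least 100, tags split by overlap, called length as an offset, the replicate number as a block, and leaving out each library. Omitting members at input peaks was added after seeing the data. The tests were tested on simulated data with 200 changed regions.

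The members, comparisons and lists were chosen with earlier results of these data known. Regions are named by rule: the 10 of highest share, the widest, 3 on each side of the limit, and the called members with the largest changes in the same direction in both replicates (3 each way for H3K9ac, 1 each way for Kbu and Kcr, 4 for the day course). The members of ranks 2, 3 and 9 were singled out for their time courses after their values were seen. Analyses used Python 3.11.15 and R 4.3.3. With 2 libraries per group, an exact permutation of a single value cannot go below p = 0.33. Depth ranged from 5631625 to 19269402 tags. The ± SE values, derived from the test's F, cover the spread between these libraries only. Gene lists and tissue markers were not used, since no annotation of this build was at hand.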

Additional observations from a re-analysis of the deposited data

Results flagged for a closer look

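H3K9ac differed between starvation and submergence in 462 of 931 members, by edgeR's quasi-likelihood test of the 2 treatments against each other, in a fit that also held the 2 control libraries. Over all regions 32.8% were called.

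The input library, which no comparison used, held a peak at 23 of the 1000 members (2.30%), against 102 of the other 19721 regions (0.517%). Its part in the members' share was not tested, but the starved and submerged medians without those 23 were 45.8% and 44.1%.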

How the results depend on the processing

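Tags exist only inside each library's own peaks, so length, depth and level are tied together, and 2 libraries per group limit every test. Of 200 values of the main results under other settings, 152 stayed within the limits set for them and 48 moved. The count of members called kept within 1.5 times of the main count under DESeq2's size factors, the higher score minimum and tags split by overlap in all 11 tests. Membership was least stable with tags per kb (505 of the 1000 kept) and, by construction, with a list of 500 (500). Causes below were not tested. The share of all regions called also moved with the setting. Counts of members given below without that share are therefore not read as traits of the members.

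With DESeq2's test the members called were 365 for H3K9ac under starvation, 327 under submergence and 130 between the stresses. Of all regions 10.3%, 6.10% and 5.62% were called in these 3 comparisons. For Kbu the members called were 121 and 74 under starvation and submergence. Without a filter they were 174 and 56 for Kbu, 27 and 10 for Kcr, and 176 for ZT6 against ZT18. With called length as an offset they were 524 for the marks in submerged libraries, 283 for H3K9ac under submergence, 116 (71 higher) and 294 (285 higher) for Kbu, 42 and 4 for Kcr, 193 over the day and 92 for ZT6 against ZT18, and 3 named changes turned sign: H3K9ac between the stresses at chr11:8673740-8679706 (0.18) and at chr1:3854397-3860374 (-0.062) and Kcr at chr4:30554669-30558863 (-0.42). With all tags used by MACS as library size Kbu under submergence gave 266 (25 higher, 241 lower), with a shift of -0.17 over all regions, and Kcr 9 higher and 58 lower, with a shift of -0.11.

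The members' median share was 45.9% in starved libraries as a mean of replicates. It was 47.4% for the first 500, 44.5% for the first 2000 and 39.9% per kb. In submerged libraries it was 44.2%, and 45.5%, 43.1% and 37.9% under those settings, 43.9% for members chosen on replicate 2, 43.8% at the higher score minimum and 44.1% without members at input peaks, the last chosen after seeing the data.

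Leaving out each library in turn gave 726 to 809 and 749 to 838 members called for the marks in starved and submerged libraries. H3K9ac gave 565 to 655 for starvation, 536 to 612 for submergence and 318 to 479 between them. Kbu gave 155 to 292 and 79 to 152, Kcr 25 to 57 and 11 to 36, the day course 277 to 469 and ZT6 against ZT18 163 to 307. The shares ranged over 45.4% to 46.4% and 44.1% to 44.3%.

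Replicate numbers did not pair the libraries, with correlations of deviations between -0.28 and 0.25. The replicate block gave 792, 836, 680, 633 and 494 members called for the marks in starved and submerged libraries and for H3K9ac under starvation, under submergence and between them. It gave 343 and 192 for Kbu, 42 and 26 for Kcr, 418 over the day and 270 for ZT6 against ZT18.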
